A study of Mus musculus with 78 samples.

Results

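SUZ12 occupancy in synchronized C2C12 myotubes was compared between 32 h and 24 h after serum shock. The comparison used the peak lists labelled SUZ12 at these times, 3 biological replicates at each time, that is 6 of the 78 samples of the series. Regions and promoters were called when a peak was present in all 3 replicates at one time and in none at the other. Promoters were windows of 3 kb to either side of a transcription start site (TSS). The 6 libraries gave 75618 merged regions, of which 175 (0.231%) had a peak at 32 h only, 2649 (3.5%) at 24 h only and 7333 in all 6 libraries. Of 53843 annotated promoters, 29 (0.0539%) had a peak at 32 h only, 538 (0.999%) at 24 h only and 2615 in all 6 libraries.

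C2C12 is an immortalized mouse myoblast line that fuses into multinucleated myotubes after serum withdrawal. The study followed chromatin binding of Polycomb proteins over a circadian cycle after myotubes had been synchronized by a shock with horse serum. Both groups were C2C12 myotubes and both had received the serum shock, so that, as labelled, they differed in the time of collection, 32 h or 24 h afterwards. According to the study's methods, SUZ12 was profiled in a stable line with reduced Ezh1 in which the biotin ligase BirA and an Avi-tagged EZH1α had been introduced, and Drosophila chromatin had been added as a spike-in. The labels name C2C12 alone. The deposited names of the SUZ12 lists could also be read as streptavidin, which captures biotinylated EZH1, and the labels were followed here. Peak lists hold no expression values, so muscle identity could not be checked by marker genes. They also hold neither read counts nor spike-in factors, so the read depth behind each list is unknown and a difference in list size between the times cannot be told apart from a difference in depth or efficiency of precipitation.

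Polycomb repressive complex 2 (PRC2) methylates lysine 27 of histone H3. SUZ12 is a core subunit that holds the complex together and brings it to chromatin, EZH1 and EZH2 are alternative catalytic subunits, and trimethylated lysine 27 (H3K27me3) is the mark that the complex leaves. Its best known targets in differentiated cells are CpG-rich promoters of developmental regulators, such as the Hox genes, that are silent in that tissue. EZH1 is the catalytic subunit that prevails in non-dividing cells such as myotubes.

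The sequences of 6 regions and 5 promoters found at a single time are shown to give their repeat and CpG content. The first set below shows 150 bases at the summit of the 3 strongest regions of each kind over 3 kb from any TSS, ranked by the weakest of their 3 fold enrichments. All sequences are the plus strand of the reference genome GRCm38, not sequence read from C2C12, and CpG dinucleotides are in capitals.
32 h only, chr16:76866122-76866271, in 1700041M19Rik: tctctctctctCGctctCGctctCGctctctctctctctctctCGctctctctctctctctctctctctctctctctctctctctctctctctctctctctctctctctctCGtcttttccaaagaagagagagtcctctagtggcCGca
32 h only, chr1:129397565-129397714, in Thsd7b: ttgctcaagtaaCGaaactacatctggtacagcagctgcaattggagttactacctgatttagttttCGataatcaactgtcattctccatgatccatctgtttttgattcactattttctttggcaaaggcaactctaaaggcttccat
32 h only, chr15:80799194-80799343, in Tnrc6b: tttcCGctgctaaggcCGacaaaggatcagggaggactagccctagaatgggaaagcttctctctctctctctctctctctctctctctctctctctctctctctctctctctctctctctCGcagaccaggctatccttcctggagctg
24 h only, chr11:27314815-27314964, intergenic: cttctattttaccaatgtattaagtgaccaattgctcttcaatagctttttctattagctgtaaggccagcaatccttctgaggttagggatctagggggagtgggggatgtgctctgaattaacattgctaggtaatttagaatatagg
24 h only, chr7:114879323-114879472, intergenic: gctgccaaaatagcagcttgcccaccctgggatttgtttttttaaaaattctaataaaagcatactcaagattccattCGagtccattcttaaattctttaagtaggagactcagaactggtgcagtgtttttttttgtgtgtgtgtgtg
24 h only, chr1:15865769-15865918, in Sbspon: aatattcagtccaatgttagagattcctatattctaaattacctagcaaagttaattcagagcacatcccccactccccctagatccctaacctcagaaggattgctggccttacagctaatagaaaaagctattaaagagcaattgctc

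Repeat-masked bases made up 79.3% of the chr16 window, 100% of the chr1 window and 51.3% of the chr15 window among the regions at 32 h only. The chr16 and chr15 windows shared a run of 65 bases of alternating C and T. Among the regions at 24 h only, the chr11 and chr1 windows were repeat-masked throughout and shared a run of 85 bases on opposite strands. Of the chr7 window, 54.7% was masked. These windows do not stand for their sets. In the 300 bases around the summit, most bases were masked in 19.4% of the regions at 32 h only. The share was 14.3% of those at 24 h only and 18.8% of all regions.

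The second set shows 150 bases at the summit of 5 promoter peaks described below. Ifit1 and Eapp had a peak at 32 h only, and Gata3, Hoxc12 and Bmi1 at 24 h only.
Ifit1, 32 h only, chr19:34637731-34637880: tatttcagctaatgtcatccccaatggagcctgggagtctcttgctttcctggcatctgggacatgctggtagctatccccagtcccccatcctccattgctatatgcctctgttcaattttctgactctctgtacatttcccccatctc
Eapp, 32 h only, chr12:54696773-54696922: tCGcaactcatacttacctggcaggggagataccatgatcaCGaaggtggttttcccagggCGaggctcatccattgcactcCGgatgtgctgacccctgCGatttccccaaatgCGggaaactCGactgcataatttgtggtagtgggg
Gata3, 24 h only, chr2:9890062-9890211: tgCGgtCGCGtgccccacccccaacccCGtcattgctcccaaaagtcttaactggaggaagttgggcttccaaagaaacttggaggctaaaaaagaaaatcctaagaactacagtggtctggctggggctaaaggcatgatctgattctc
Hoxc12, 24 h only, chr15:102935103-102935252: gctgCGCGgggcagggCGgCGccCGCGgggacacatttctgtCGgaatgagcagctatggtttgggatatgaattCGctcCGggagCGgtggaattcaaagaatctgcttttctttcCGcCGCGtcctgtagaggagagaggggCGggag
Bmi1, 24 h only, chr2:18677910-18678059: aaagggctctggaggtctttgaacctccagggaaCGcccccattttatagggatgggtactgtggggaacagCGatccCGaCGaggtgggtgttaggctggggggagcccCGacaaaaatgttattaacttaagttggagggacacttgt

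The Hoxc12 window held 14 CpG dinucleotides, the Eapp window 7, the Bmi1 window 5 and the Gata3 window 4, and the Ifit1 window held none and was 82.0% repeat-masked. The Ifit1 window lies within the neighbouring gene Ifit1bl2, whose TSS is the nearest. The peak summit there lay at -3065 bp from the Ifit1 TSS, just outside the 3 kb promoter window. The Eapp window overlaps an exon of Gm22513, a small nuclear RNA gene at chr12:54696782-54696945 whose promoter window holds the same peak.

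SUZ12 peaks were fewer and shorter at 32 h. The lists held 29941, 28882 and 21419 peaks at 32 h, against 35012, 36513 and 40379 at 24 h, or 26747 ± 4645 and 37301 ± 2769 (SD, n = 3 each). Peaks covered 38.0, 36.4 and 23.1 Mb at 32 h, against 54.7, 58.5 and 63.2 Mb at 24 h, a ratio of means of 0.553. The groups did not overlap in either measure, and replicate 3 of 32 h was the lowest of the 6 libraries in both. The exact two-sided permutation p was 0.1 for each, the smallest that 3 against 3 libraries can give, so no comparison of this kind could reach 0.05. These p-values measure the spread between these samples only.

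Promoters followed the same order. A SUZ12 peak was found at 4126, 4149 and 3398 promoters at 32 h, against 5155, 5358 and 5672 at 24 h (exact permutation p = 0.1). The share of peaks within 3 kb of a TSS was 16.4 ± 1.45% at 32 h and 15.9 ± 0.347% at 24 h (n = 3 each, SD; exact permutation p = 0.9), and the groups overlapped. Lists were also cut to the 21419 peaks with the smallest q-value given by the peak caller, which is not a ranking by fold enrichment. The length covered was then 29.3 Mb at 32 h and 47.5 Mb at 24 h on average, and 3491 and 4159 promoters had a peak. The groups again did not overlap (exact permutation p = 0.1 for both).

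**Figure D1:**
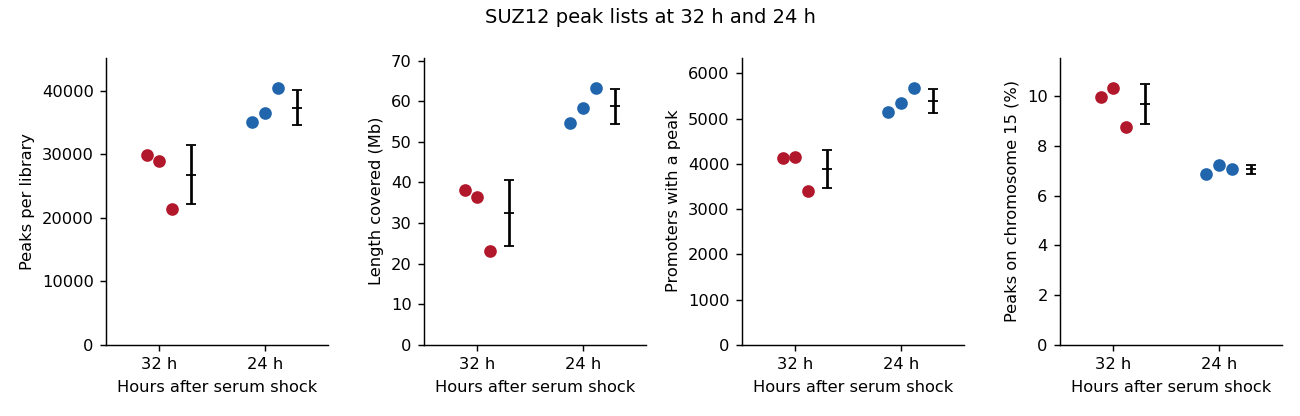
Number of SUZ12 peaks, length covered in Mb, promoters with a peak and share of peaks on chromosome 15 in %, for the 3 libraries at 32 h (left in each panel) and the 3 at 24 h. Points are libraries and bars are the mean ± SD; the 32 h libraries are lower in the first 3 panels and higher, at 8.76% to 10.3%, in the last.

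Chromosome 15 stood higher at 32 h as a share of each list, which is not a count of its peaks. It carried 9.95%, 10.3% and 8.76% of the peaks at 32 h, against 6.88%, 7.24% and 7.07% at 24 h (exact permutation p = 0.1). Of the 175 regions at 32 h only, 44 lay on chromosome 15, or 25.1%, against 5.17% of the regions at 24 h only and 9.28% of all regions. The share ran from 5.19% to 11.2% in SUZ12 lists of the other times, from 4.79% to 5.47% in Bio-EZH1 lists and from 3.6% to 5.01% in H3K27me3 lists. The part of chromosome 15 in the calls at 32 h only was not tested.

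The numbers that the peak caller gave to its peaks were not continuous in the lists. Missing numbers came to 14.0 ± 2.10% of the peaks at 32 h and 8.99 ± 0.413% at 24 h (n = 3 each, SD), against 9.95% to 13.8% in SUZ12 lists of other times, 1.24% to 7.21% in H3K27me3 lists and at most 0.063% in Bio-EZH1 lists, and the sources used here do not say how the gaps arose. Whether a peak missing from the numbering could have stood at a call was checked from the numbers of the flanking peaks in each library without one. They were consecutive at 535 of the 538 promoters at 24 h only and at all 29 promoters at 32 h only.

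Region by region, absence at 32 h was the more frequent change. Of the 75618 regions, 175 (0.231%) had a peak at 32 h only and 2649 (3.5%) at 24 h only. The median region at 32 h only was 1065 bp long, at 24 h only 1532 bp, and in all 6 libraries 4429 bp. Over all regions it was 662 bp. Of the regions at 32 h only, 14.9% lay within 3 kb of a TSS, near the 13.0% of all regions. The share was 20.0% for those at 24 h only and 32.1% for those in all 6 libraries. A peak of the other time lay within 1 kb of 48.6% of the regions at 32 h only and of 24.8% of those at 24 h only. These shares are not alike, since the 24 h lists covered 58.8 Mb on average and the 32 h lists 32.5 Mb. The part of list size in them was not tested. Leaving out a library removes a condition of the rule, so the counts could only rise, by an amount that differed between libraries. Without replicate 3 of 32 h, the smallest list, 912 regions and 81 promoters had a peak at 32 h only, against 478 and 48 without replicate 1 and 521 and 59 without replicate 2, and without a 24 h library 4049 to 5007 regions had a peak at 24 h only. Beyond the rule, 222 regions had a peak in 3 libraries at 32 h and 1 at 24 h, and 2405 the reverse.

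Fold enrichment is the ratio of the signal at a peak to the local background that the peak caller modelled. It was 10.5, 8.17 and 10.1 in the 3 libraries at 32 h for the chr16 region, 5.49, 4.02 and 9.28 for the chr1 region and 4.09, 3.92 and 5.82 for the chr15 region, and none had a peak at 24 h. The regions at 24 h only reached 7.76, 9.08 and 6.98 on chr11, 5.95, 8.10 and 5.61 on chr7 and 6.27, 5.48 and 5.89 on chr1, with no peak at 32 h. These 6 stood above their groups, whose median of the mean fold enrichment was 2.96 for regions at 32 h only and 2.76 for regions at 24 h only. Regions in all 6 libraries had a median of 3.51 at 32 h and 3.85 at 24 h.

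The 7333 regions present in all 6 libraries were narrower at 32 h. On average 3326 ± 566 bp of each was covered at 32 h, against 4868 ± 167 bp at 24 h, a ratio of 0.683 (SD, n = 3 each; exact permutation p = 0.1). These regions were also more broken up: 45.4 ± 0.743% of them were covered by several separate peaks at 32 h, against 31.7 ± 2.42% at 24 h (exact permutation p = 0.1). The groups did not overlap in either measure.

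At promoters, 29 of 53843 gene records (0.0539%) had a SUZ12 peak at 32 h only, and 11 of 21755 protein-coding genes did (0.0506%). They lay on 24 distinct regions, and in 20 of the 29 (69.0%) a peak summit lay in the window in all 3 libraries at 32 h. Ifit1 (chr19:34640871-34650009), an interferon-induced protein that binds foreign RNA, had fold enrichments of 3.08, 3.87 and 3.51 at 32 h and no peak at 24 h. Its neighbour Ifit1bl2 shares this peak, whose strongest summit lay at -3065 bp from the Ifit1 TSS, just outside the window. The chemokine gene Ccl22 (chr8:94745590-94751699) had 2.85, 3.5 and 3.00, and the chemokine gene Ccl4 (chr11:83662584-83664683) had 2.60, 2.44 and 4.07. Tnfrsf8, which encodes the receptor CD30, had 3.04, 2.68 and 3.09, and Cd300ld3, of a family of myeloid surface receptors, had 2.72, 2.83 and 2.78. These values ran from 2.44 to 4.07, around the median fold enrichment of the whole 32 h lists, which was 2.97 ± 0.154 (n = 3, SD).

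The other genes at 32 h only were of mixed kinds. Eapp (chr12:54670340-54695897), an E2F-associated phosphoprotein, had 2.87, 2.96 and 3.51 from the peak on Gm22513 shown above. Ssr2, a subunit of the translocon-associated protein complex of the endoplasmic reticulum, had 2.18, 3.53 and 3.34, and shares its peak with the pseudogene Gm10704. Tmem71, Gm8300 and Gm17174 complete the 11, with fold enrichments from 2.38 to 3.51. At Ccl22 the peak joined a region with a 24 h peak, which began 3193 bp from the TSS, just outside the window. No gene of the 21 lists described below had a peak at 32 h only.

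**Figure D2:**
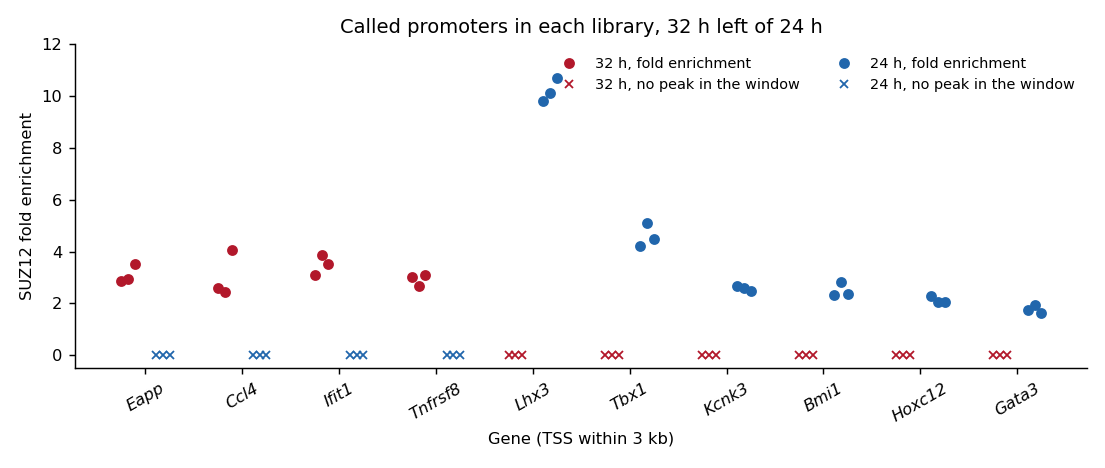
SUZ12 fold enrichment (linear axis) in each library at promoters called at a single time, for 10 genes; in each gene 32 h (red) stands left of 24 h (blue), points are libraries with a peak within 3 kb of the TSS and crosses at the bottom mark libraries without one. Lhx3 reaches 9.81 to 10.7 at 24 h, whereas Eapp, Ccl4, Ifit1 and Tnfrsf8 lie between 2.44 and 4.07 at 32 h.

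At 24 h only, 538 gene records (0.999%) and 303 protein-coding genes (1.39%) had a SUZ12 peak. Their peaks were low in fold enrichment. The median over these promoters of the mean fold enrichment was 2.44, and in 246 of the 538 (45.7%) the weakest of the 3 values was under 2. Single peaks under 2, an unlike measure, made up 3.53% to 6.20% of the 24 h lists. Promoters with a peak in all 6 libraries had medians of 3.43 at 32 h and 4.37 at 24 h. The q-value of the peak caller was under 0.01 in all 3 libraries at 70.6% of the promoters at 24 h only. This share was 65.5% for promoters at 32 h only, and 97.3% at 24 h for promoters with a peak in all 6 libraries. Just outside the rule, 397 promoters had a peak in 3 libraries at 24 h and 1 at 32 h.

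The strongest of these promoters were cases at the border of the window. Igf1r (chr7:67952827-68233668), the receptor for insulin-like growth factor 1, had fold enrichments of 32.4, 34.6 and 23.7 at 24 h and no peak within 3 kb of the TSS at 32 h. Its peak belongs to a region of 28.9 kb that had 28.0, 14.3 and 32.3 at 32 h, so a SUZ12 peak was called there at both times. What moved was the edge: the peak began 3094, 4384 and 4468 bp from the TSS at 32 h, against 2799, 2508 and 2319 bp at 24 h. Gnao1, the alpha subunit of the G protein Go, is of the same kind, with 11.7, 6.69 and 6.77 at 24 h in the window. Its whole region had 10.2, 11.7 and 11.8 at 32 h, against 14.3, 8.14 and 8.16 at 24 h, and the groups overlapped.

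Lhx3 (chr2:26200212-26208289), a LIM homeodomain factor of pituitary and motor neuron development, differed in both edge and height. Its region had 3.51, 3.05 and 3.43 at 32 h, against 9.81, 10.1 and 10.7 at 24 h, and the groups did not overlap. The peak began 3633, 3942 and 3853 bp from the TSS at 32 h, against 2273, 2707 and 2189 bp at 24 h. Fam135b, Snrpb2, a protein of the U2 small nuclear ribonucleoprotein, Tnxb, which encodes the matrix protein tenascin X, the Iroquois factor Irx6, the T-box factor Tbx1, the imprinted gene Rtl1, Ceacam2, the synaptonemal complex gene Sycp1 and Gm30191 complete the 12 protein-coding genes with the strongest peaks. In all 12 a 24 h peak in the window joined a region with a 32 h peak outside it. This held for 92 of the 538 promoters (17.1%), and 51 of these 92 regions had a 32 h peak in all 3 libraries.

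The remaining 446 promoters, of which 260 are protein-coding, held no such region. Their median fold enrichment was 2.31 at 24 h, and the highest mean was 4.20. Over the 538, the nearest 32 h peak lay at a median of 9.48 kb from the TSS.

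**Figure D3:**
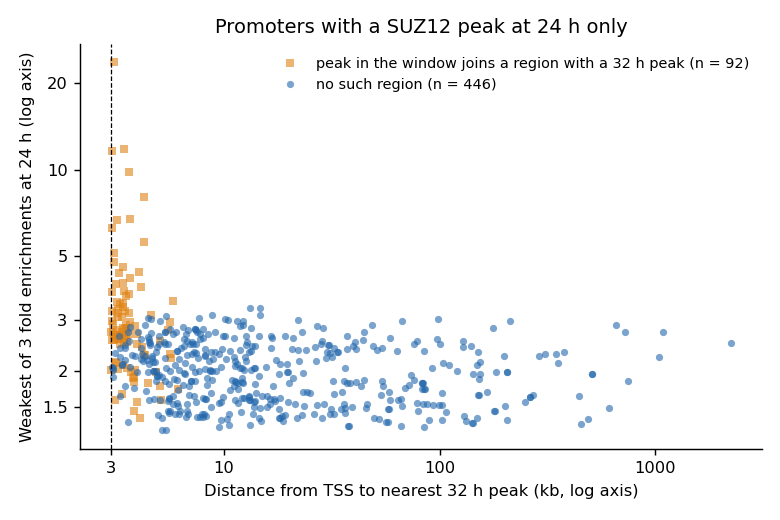
Each point is a promoter with a SUZ12 peak at 24 h only, by its distance in kb from the TSS to the nearest 32 h peak (log axis) and the weakest of its 3 fold enrichments at 24 h (log axis); the dashed line is the border of the window at 3 kb. The 92 promoters whose peak joins a region with a 32 h peak (orange squares) lie near the border and include the strongest, and the other 446 (blue circles) extend far to the right at low fold enrichment.

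The promoters at 24 h only were set against 21 lists of genes of known function, with 1.39% of protein-coding genes as the background. This background includes the 18481 of 21755 protein-coding genes (85.0%) without a peak in any of the 6 libraries. Such genes were 31 of 105 developmental transcription factors, 34 of 66 channels and 14 of 21 Notch genes. A share above 1.39% therefore does not by itself set a list apart from other genes with SUZ12 peaks. Developmental transcription factors had 9 of 105 members at 24 h only (8.57%), 64 in all 6 libraries and none at 32 h only. Besides Lhx3, Irx6 and Tbx1, whose regions also had a 32 h peak, these were Irx1, Tfap2b, Tfap2c, the lung and thyroid factor Nkx2-1, Gata3, which directs T cell development, and Sox11. Gata3 (chr2:9857078-9890034) had 1.75, 1.95 and 1.62 at 24 h, and the nearest 32 h peak lay 262706 bp from its TSS. Irx1 had 2.25, 2.30 and 3.46 and Sox11 had 1.5, 1.51 and 1.52, which are the ends of the range of the members without a shared region. Of 39 Hox genes, which set position along the body axis, 20 had a peak in all 6 libraries and only Hoxc12 (chr15:102936757-102938609) had it at 24 h only, with 2.27, 2.04 and 2.06.

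Potassium, sodium and calcium channels had 7 of 66 members at 24 h only (10.6%), and all 7 were potassium channels without a shared region. Kcnk3 (chr5:30588170-30625271), a background potassium channel, had 2.66, 2.59 and 2.47. Kcnd3, Kcnk10, Kcnq3 and Kcnc1 had values from 1.37 to 3.02. The Notch pathway had 3 of 21 members (14.3%): the receptor Notch4 with 2.39, 3.65 and 3.29, the ligand Dll3 with 2.48, 2.04 and 1.96, and the target factor Hey2 with 2.09, 1.68 and 1.79. Genes of the neural lineage had 4 of 49 (8.16%), among them the factors Nkx2-4 and Insm1 and the acetylcholine synthesis gene Chat, with values from 1.81 to 2.87.

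Neurotransmitter receptors had 4 of 64 members at 24 h only (6.25%), among them the glutamate receptor Grm4, the muscarinic receptor Chrm3 and the dopamine receptor Drd4. Grm4 had 8.21, 7.04 and 1.73, a wide spread, and its region had a 32 h peak, while Chrm3 and Drd4 had values from 1.55 to 2.54. Axon guidance genes had 3 of 57 (5.26%), the secreted cue Slit3, the ephrin Efna5 and the semaphorin Sema6a. Signalling ligands and antagonists had 3 of 61 (4.92%), Nrg1, Gdf10 and Fgf11. Collagens and matrix had 2 of 53 (3.77%), Tnxb and Col11a1.

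In several other lists a single member was called at 24 h only. Bmi1 (chr2:18677018-18686629), a subunit of the other Polycomb complex, PRC1, had 2.34, 2.84 and 2.35 and was the only one of 18 PRC1 genes. Others were the protocadherin Fat3 of 37 cadherins and protocadherins, the bone matrix gene Ibsp of 47 genes of other lineages, the imprinted Grb10 of 19 imprinted genes and, as given above, Hoxc12. Muscle structure and metabolism also had 1 of 44 members (2.27%). The core clock, myogenic regulators, the cell cycle, cell cycle inhibitors, PRC2 subunits, RNA polymerase II subunits and housekeeping genes had 0 members, among 25, 20, 29, 11, 12, 12 and 20 genes. Of the 2 lists that the study drew from nascent transcription in related cells, genes highest at 16 h had 6 of 1215 (0.494%), including Stard8, Cmah, Tdrkh, Osbpl6 and Zfp664. Genes lowest at 24 h had 12 of 944 (1.27%), including Igf1r, Fam234a, Mmp15, Nrcam, Sema6a, Obsl1, Gprc5c, Rbm20 and Map3k9.

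Of 25 genes of the core clock and its output, 22 (88.0%) had no promoter peak in any of the 6 libraries, near the 85.0% of all protein-coding genes. The other 3 (12.0%) had a peak in all 6, beside the 6.48% of protein-coding genes that did. Hlf, an output factor of the clock, had 4.13, 3.70 and 4.12 at 32 h, against 5.27, 5.56 and 5.39 at 24 h. Npas2, a partner of BMAL1, had 2.72, 2.60 and 3.07 at 32 h, against 4.36, 3.49 and 3.83 at 24 h. Rora, an activator of Bmal1, had 1.94, 1.67 and 2.00 at 32 h, against 2.17, 2.50 and 2.05 at 24 h. In each of the 3 the 32 h values were all below the 24 h values, but after centring as described below none passed the limma test across promoters. Without centring, 2 of the 3 were called lower at 32 h.

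Except at 20 h, lists of other times, unused by the rule, showed SUZ12 at most of the promoters called at 24 h only. In the 12 h lists 79.9 ± 3.84% of them had a peak, in the 16 h lists 73.2 ± 1.27%, in the 20 h lists 40.6 ± 6.51% and in the 28 h lists 82.1 ± 1.34% (n = 3 each, SD), against 10.5%, 9.6%, 7.51% and 12.0% of all promoters. Of the 538, 344 had a peak in 9 or more of these 12 libraries, 61 in all 12 and 11 in none. Kcnk3, Notch4, Dll3 and Kcnd3 were among the 61. Of the promoters with a peak in all 6 libraries at 32 h and 24 h, 94.3% to 98.0% had one at the other times (means of 3). The 29 promoters at 32 h only were found in the lists of other times as follows, with 13.8 ± 3.45% in the 12 h lists, 33.3 ± 7.18% in the 16 h lists, 31.0 ± 3.45% in the 20 h lists and 20.7 ± 3.45% in the 28 h lists, and a median of 2 of 12 libraries. The lists of the other times held 21487 to 36210 peaks, and those of 20 h were the shortest among them. The part of list length in these shares was not tested.

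Bio-EZH1, the biotin-tagged catalytic subunit, was found at most of the promoters with SUZ12 at 24 h only, at both times. Among the 538 promoters at 24 h only, 64.7 ± 2.14% had a Bio-EZH1 peak at 32 h and 64.4 ± 2.79% at 24 h (n = 3 each, SD; exact permutation p = 0.9), and the groups overlapped. H3K27me3 peaks were at 90.3 ± 1.03% of them at 32 h and 90.4 ± 0.429% at 24 h (exact permutation p = 1.0). In all promoters the shares were 9.65% and 9.11% for Bio-EZH1 and 22.2% and 23.8% for H3K27me3 at 32 h and 24 h. Restricted to the 446 promoters without a shared region, Bio-EZH1 was at 67.1 ± 2.18% at 32 h and 66.1 ± 2.60% at 24 h (exact permutation p = 0.6). The Bmi1, Hoxc12, Kcnk3, Notch4 and Gata3 promoters had a Bio-EZH1 peak in all 3 libraries at both times. Of these, Kcnk3, Notch4 and Gata3 also had H3K27me3 in all 6 libraries, and Bmi1 and Hoxc12 had it in none.

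The 29 promoters at 32 h only had little Bio-EZH1. A peak was at 3.45% of them in each library at 32 h and at 1.15 ± 1.99% at 24 h, that is at 1 or no promoter in a library (exact permutation p = 0.4). H3K27me3 was at 56.3 ± 5.27% at 32 h and 56.3 ± 1.99% at 24 h (exact permutation p = 1.0). Ifit1, Ccl22, Ccl4, Tnfrsf8 and Cd300ld3 had H3K27me3 in all 6 libraries, and Eapp in none. Over regions, H3K27me3 was less frequent at 32 h in each set: 65.1 ± 1.98% at 32 h and 72.2 ± 1.84% at 24 h of the regions at 32 h only, 78.6 ± 1.13% and 85.5 ± 0.885% of those at 24 h only, and 50.2 ± 1.43% and 58.8 ± 1.17% of all regions (exact permutation p = 0.1 for each). The covered length of H3K27me3 was 208 ± 7.36 Mb at 32 h and 258 ± 7.54 Mb at 24 h.

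**Figure D4:**
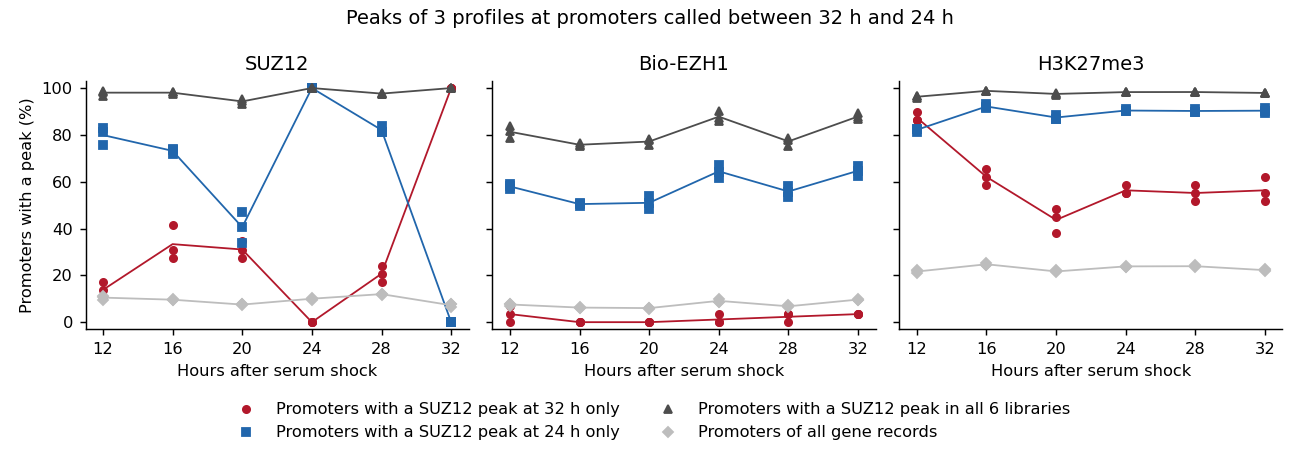
Share of promoters in % with a peak of SUZ12, Bio-EZH1 or H3K27me3 at 6 times in hours after serum shock; points are libraries and lines join the means of 3. SUZ12 shares at 24 h and 32 h are fixed by the rule (0% or 100%), while Bio-EZH1 at the promoters with SUZ12 at 24 h only stays between 48.5% and 67.3% over all times and at the promoters with SUZ12 at 32 h only at or below 6.90%.

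The base composition of the groups is given as a description, with no test. For regions, the window was the 300 bases around the summit of the strongest peak. The median ratio of observed to expected CpG was 0.159 for regions at 32 h only and 0.231 for those at 24 h only. It was 0.260 for those in all 6 libraries and 0.173 for all regions. The letters GCGCGC, a palindrome that reads the same on both strands, were in none of the regions at 32 h only, in 2.72% at 24 h only and in 4.77% in all 6 libraries, against 0.788% of all regions. The E-box CACGTG, the letters that the clock factors BMAL1 and CLOCK bind, also a palindrome, was in 4.0% at 32 h only, 3.36% at 24 h only and 3.01% of all regions. The motifs could overlap by 1 base at most.

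Around the TSS of protein-coding genes, from 250 bases before to 50 after, the CpG ratio was 0.2 for the 11 genes at 32 h only, 0.549 for the 303 at 24 h only, 0.591 for the 1410 (6.48%) with a peak in all 6 libraries and 0.530 for all genes. GCGCGC was in none of the 11, in 22.8% of the 303 and in 22.2% of the 1410, against 16.4% of all. CACGTG was in 1 of the 11, in 6.93% of the 303 and in 7.81% of all. Within the 303, genes whose weakest fold enrichment was under 2 had a CpG ratio of 0.631 and GCGCGC in 29.1%, and the others 0.384 and 13.2%. A match of these letters is a description and shows no binding.

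At the 2615 promoters with a peak in all 6 libraries, fold enrichment was lower and more even at 32 h. The median was 3.36, 3.33 and 3.51 in the 32 h libraries, against 4.39, 4.37 and 4.42 at 24 h, and the SD of log2 fold enrichment across promoters was 0.737 to 0.814 at 32 h and 0.917 to 0.925 at 24 h. Each library was centred on its median before the limma test, which removed a general shift of -0.37 on the log2 scale, and the differences below are relative to it. After centring, 239 promoters (9.14%) were higher and 427 (16.3%) lower at 32 h at an adjusted p under 0.05. Without centring the split was 64 higher and 1180 lower. With quantile normalization, which also removes the difference in SD, 195 were higher and 281 lower.

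**Figure D5:**
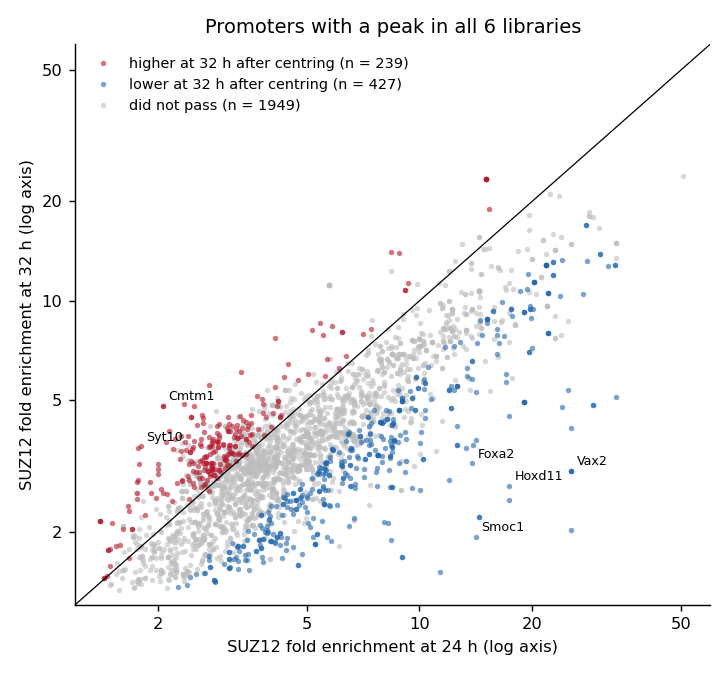
Mean SUZ12 fold enrichment at 32 h (vertical, log axis) against 24 h (horizontal, log axis) at the 2615 promoters with a peak in all 6 libraries; red and blue points were higher (239) and lower (427) at 32 h after centring, grey points did not pass, and the line marks equal values. Most of the cloud lies below the line, and Vax2, Smoc1, Hoxd11 and Foxa2 are among the points far below it.

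The 10 protein-coding genes with the largest differences downward include Smoc1, Vax2 and Zpbp2. Smoc1 (chr12:81026808-81186414), a secreted matrix protein that modulates BMP signalling, had 1.99, 1.53 and 2.36 at 32 h, against 14.5, 13.7 and 14.2 at 24 h, and the groups lay far apart. The log2 difference was -2.50 ± 0.15 (SE; limma, adjusted p = 0.000528), and with only peaks whose summit lay in the window it was -2.60. Zpbp2, a gene of the sperm acrosome, had 3.00, 1.79 and 1.54 at 32 h, against 25, 25.2 and 26.2 at 24 h (log2 difference -3.29 ± 0.25). Vax2, a homeodomain factor of the ventral eye, had 2.53, 2.97 and 3.80 at 32 h, against 24.3, 26.5 and 25.6 at 24 h (log2 difference -2.69 ± 0.15). At Zpbp2 and Vax2 the strong 24 h peak had its summit outside the window, so these values are those of a broad peak that reached into the window at 24 h.

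The same held for the other 7 of the 10 protein-coding genes with the largest differences. Hoxd11 had 3.17, 2.53 and 2.60 at 32 h, against 17.1, 15.1 and 20.3 at 24 h, and its neighbour Hoxd12 shares the 24 h peak. Hoxd3 and Hoxd4, which share theirs, had 2.16, 1.52 and 1.43 at 32 h, against 8.09, 9.31 and 9.56 at 24 h. Foxa2, a forkhead factor of endoderm, had 3.29, 2.96 and 3.45 at 32 h, against 13.2, 12.8 and 15.6 at 24 h. Fam198a and the germ cell helicase gene Ddx4 complete the 10. Smoc1 alone had its 24 h summits in the window in all 3 libraries. Of the 2615 promoters, 1896 had a summit in the window in all 6 libraries, and among them 139 were higher and 385 lower.

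The genes with the largest differences upward had modest values. Cmtm1, a chemokine-like transmembrane protein, had 5.71, 4.76 and 4.09 at 32 h, against 2.00, 2.48 and 1.75 at 24 h (log2 difference 1.59 ± 0.19; limma, adjusted p = 0.0044), and Gm45711 shares its peak. Syt10, a synaptotagmin, had 3.59, 3.34 and 3.97 at 32 h, against 1.54, 1.59 and 2.37 at 24 h (log2 difference 1.38 ± 0.18). Tro, on the X chromosome, had 3.00, 3.36 and 3.26 at 32 h, against 2.2, 1.66 and 1.54 at 24 h. In these 3 the groups did not overlap. In Rln1, which encodes a relaxin, and in Colgalt2, a collagen galactosyltransferase, they did: Rln1 had 5.97, 3.58 and 5.39 at 32 h, against 1.93, 3.97 and 1.68 at 24 h, and Colgalt2 had 4.37, 5.47 and 1.94 at 32 h, against 1.63, 1.74 and 1.94 at 24 h.

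Trim38 and Mpzl3 were also among the 10. Dpp4, a surface peptidase, had 5.04, 5.24 and 4.18 at 32 h, against 2.36, 2.10 and 3.12 at 24 h, but with summits in the window its log2 difference was 0.08 (limma, adjusted p = 0.837, with 0.00455 to 0.837 over all alternatives). Ckmt1, mitochondrial creatine kinase, had 4.40, 4.71 and 4.46 at 32 h, against 2.94, 2.25 and 2.70 at 24 h, and with summits in the window the sign turned, to -0.28 (limma, adjusted p = 0.181, with 0.00311 to 0.251 over all alternatives).

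The lists of developmental regulators are read against the 16.3% of all tested promoters, and 18.6% of the protein-coding ones, that were lower at 32 h. Among 20 Hox genes 8 were lower and none higher, Hoxc13, Hoxd3, Hoxd4, Hoxd8, Hoxd9, Hoxd10, Hoxd11 and Hoxd12, and 7 of these 8 lie in the HoxD cluster, where peaks are shared. Among 64 developmental transcription factors 26 were lower, among them Foxa2, Six6, Tbx20, Gata6 and Pax2, and Dlx2 was higher. The median log2 difference was -0.35 for the Hox genes and -0.38 for the developmental factors, against -0.04 for all promoters and -0.08 for protein-coding promoters tested. Under quantile normalization 5 Hox genes and 17 developmental factors were lower, against 281 of 2615 overall. Only 3 of the Hox genes had a summit in the window in all libraries, and 1 of these was lower.

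Genes of the neural lineage had 8 of 21 lower and none higher, including Neurog1, Neurog2 and the neurofilament gene Nefl. Neurotransmitter receptors had 4 of 10 lower, Adrb1, Grin2c, Chrm2 and Grik4. Channels had 7 of 24 lower, including Kcna1 and Kcna2, and Scn3a was higher. Signalling ligands had 7 of 31 lower, including Shh, Ihh, Wnt3 and Fgf8, axon guidance 3 of 11, the lineage genes 2 of 13, Afp and Cdx2, and imprinted genes both of 2, Phlda2 and Gnas. The Notch pathway (Hes2), cadherins (Cdh22) and myogenic regulators (Eya4) had 1 of 4 lower each. Collagens and matrix had Col15a1 lower and Col14a1 higher of 12. Mybpc1, of 7 muscle genes, Ccnd1, of 2 cell cycle genes, and Polr2k, the only RNA polymerase II gene tested, were higher. Of the genes called higher, Scn3a, Col14a1, Ccnd1 and Polr2k were not called without centring, and Dlx2 and Mybpc1 were. Under quantile normalization no lineage or Notch gene was lower, and Col14a1 and Polr2k were not called higher. After centring no clock gene and no PRC1 gene passed, whereas without it 2 of 3 clock genes and the 1 PRC1 gene tested were lower.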

How the data were processed

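Deposited ChIP-seq peak lists of the 6 SUZ12 libraries at 32 h and 24 h were compared, with the lists of SUZ12 at 4 other times and of Bio-EZH1 and H3K27me3 for context. According to the study's methods and processing notes, the authors used BBDuk for trimming, BWA 0.7.17 for alignment to mm10 and BDGP6, disambiguate to separate the genomes and Picard to remove duplicates, then filtered with SAMtools 1.7 and called peaks per library with MACS2 2.2.4. For each peak the authors' files give fold enrichment, a ratio to the modelled background, and p-values and q-values on the −log10 scale. Any filter after peak calling is not given in the sources used here. A q of 0.05 was the largest in the SUZ12 lists (0.1 for the broad H3K27me3 peaks). Lists are not scaled by the spike-in, and the depth per sample is unknown, so no counting interval was computed and the spread between replicates is the error.

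Genes came from GENCODE M21 on GRCm38, chromosomes 1 to 19 and X. Peaks of the 6 libraries that overlapped by 1 bp or more were merged into regions. Peak presence was called per library, and library measures were compared by exact two-sided permutation tests (SciPy 1.17.1). At promoters with a peak in all 6 libraries, the log2 fold enrichment of the strongest overlapping peak was centred on the median of its library and tested with limma 3.58.1 (R 4.3.3), with Benjamini-Hochberg adjustment over 2615 promoters. Scripts were tested on simulated data. Alternatives were q under 0.01, equal list sizes, a 1 kb window, other TSS and gene sets, 1 kb bins, 50% coverage, other scalings, the replicate block and leaving out each library. Summits in the window and the absence of a shared region were added after seeing the data. Named genes were the 12 strongest protein-coding calls at each time, called list members, the 10 largest limma differences each way, clock genes with a peak and the 3 strongest distal regions each way. Some genes that this rule names are not reported here. The members and gene lists were chosen with earlier results of these data known. The 6 HA input samples have no peak list and were not used.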

Additional observations from a re-analysis of the deposited data

How the results depend on the processing

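Both directions of the comparison kept their order, with more promoters and regions at 24 h only than at 32 h only, under every alternative run, but the counts moved. Counts of promoters and regions without single libraries could only rise, since a condition of the rule was then dropped. Promoters at 32 h only numbered 19 when presence needed q under 0.01, 47 with equal list sizes, 11 with a 1 kb window, 11 for protein-coding genes and 80 with summits in the window, and 40 to 81 without single libraries, the most without replicate 3 of 32 h. Promoters at 24 h only numbered 277 with equal list sizes and 303 for protein-coding genes, and 591 to 785 without single libraries. With equal list sizes 217 of the 538 remained, and with a 1 kb window 250. Regions at 32 h only numbered 106 when presence needed q under 0.01, 275 with equal list sizes, 72 with 50% coverage, 363 in 1 kb bins and 226 to 912 without single libraries. Regions at 24 h only numbered 1085 with equal list sizes, 9833 in bins and 3004 to 5007 without single libraries. The difference in the share of peaks near a TSS changed sign with equal list sizes, to -1.51 points, and ranged over -0.344 to 1.04 points without single libraries. At promoters at 24 h only, the difference between 32 h and 24 h with a 1 kb window was -0.310 points for Bio-EZH1 and 0.558 points for H3K27me3, and without single libraries -1.12 to 1.67 and -0.620 to 0.403 points. With H3K27me3 peaks of q under 0.01 it was -3.16 points (exact permutation p = 0.1). No cause of these changes was tested.

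In the limma test, promoters higher at 32 h numbered 64 without centring and 139 with summits in the window, and 106 to 165 without single libraries. Those lower numbered 258 with a 1 kb window, 1180 without centring, 281 with quantile normalization and 214 to 445 without single libraries, with 214 to 252 without replicate 2 of 32 h or any 24 h library. Over the alternatives the limma adjusted p reached 0.116 for Colgalt2, 0.101 for Ddx4, 0.0923 for Rln1, 0.0683 for Mpzl3 and 0.0639 for Hoxd12. Ckmt1 changed sign with a 1 kb window (-0.20) and with summits in the window (-0.28). Replicate numbers gave no clear pairing: deviations of same-numbered libraries correlated at 0.0606, -0.0414 and 0.0321, against -0.0746 to 0.0405 for other pairs. Replicates 1 and 3 of 32 h correlated best with their own number, and replicate 2 with another. With the replicate number as a block, 108 were higher and 187 lower. Over all named genes and alternatives, 773 values kept their call, 126 lost it and 2 changed sign. For genes called at a single time, leaving out a library could not undo the call. Those values are among the 773 by the rule itself and say nothing about stability. Unknown depth and the absence of spike-in scaling limit every comparison of list size, and weak peaks near the calling threshold limit the calls at a single time.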
